A study of Mus musculus with 30 samples.

Results

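The chromosome 14 protease cluster holds the genes of mast cell, neutrophil and cytotoxic lymphocyte serine proteases, and 9 of its genes were chosen by name: Cma1, Mcpt1, Mcpt9, Mcpt2, Mcpt4, Mcpt8, Ctsg, Gzmc and Gzmb, given here in their order along the chromosome. They are 9 of 21938 protein-coding genes on the main mouse chromosomes and 9 of 15 protein-coding protease genes of the cluster. For each member, H3K27ac peaks were taken within 2.5 kb of any of its annotated transcription start sites (TSSs), and across the whole cluster with 100 kb on either side. The rule uses no measured value.

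The study examined mouse lung adenocarcinoma cells treated with UNC0638, an inhibitor of the H3K9 methyltransferases G9a and Glp. Chromatin immunoprecipitation and sequencing (ChIP-seq) of H3K27ac gave 1 deposited peak list for each of 4 conditions: CK1750 cells with DMSO (3 sequenced samples in the labels), CK1750 cells with 1 µM UNC0638 (2 samples), Tnm2 cells with DMSO (2 samples) and Tnm2 cells with 1 µM UNC0638 (2 samples). In the sample titles, 2 of the 3 samples of CK1750 cells with DMSO are separate sequencing entries of replicate 1, and both samples of CK1750 cells with UNC0638 carry replicate number 2, so that by the titles the treated CK1750 group has 1 replicate number and each other group 2. The study's methods give another number of biological replicates than the titles do, and which samples entered a list is not stated. All were grown in the same serum-containing medium, and no genotype, allele or treatment time is given for them in the labels. The lists held 27367, 24601, 30641 and 18794 peaks, with median scores of 153, 180, 140 and 119 in that order. Each line is 1 cell population in culture, and the labels assign each group's samples to 1 list. With 1 list for each group there was no replicate error and no test between conditions. The number of reads behind each list is unknown. A peak's score, -10 times the base-10 logarithm of its P value, grows with depth, so that scores were ranked within a list and not compared as signal between lists. Peaks in a pool of cells do not tell a strong mark in few cells from a weak mark in many.

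The proteins encoded here are stored in secretory granules and released on degranulation. Chymase-type proteases are products of mast cells and basophils, cathepsin G of neutrophils, and granzymes of cytotoxic T and natural killer cells, where perforin delivers them into a target cell. Acetylation of histone H3 at K27 marks active promoters and enhancers, and in epithelial cells such as these the granule proteases are not part of the usual programme.

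The cluster spans 321 kb, chr14:55941451-56262260 on mm10, from the end of Cma1 to the start of Gzmb. A peak lay within 2.5 kb of a TSS for 1 of the 9 members in each list, and in each list it was Cma1. Of all protein-coding genes, 50.04% had such a peak in DMSO-treated CK1750, 49.1% in UNC0638-treated CK1750, 49.4% in DMSO-treated Tnm2 and 41.3% in UNC0638-treated Tnm2, while 39.3% had one in all 4 lists and 54.03% in at least 1 list. The members' share was therefore below that of coding genes in every list at this window. With 10 kb to either side it passed that of coding genes in both UNC0638 lists (6 of 9 members, 66.7%, beside 55% in UNC0638-treated CK1750, and 5 of 9, 55.6%, beside 47.7% in UNC0638-treated Tnm2), and in DMSO-treated Tnm2 it came to 55.6% beside 56%. Within 2.5 kb the member with a peak was the same with and without UNC0638. No peak in the cluster covered a TSS of any member.

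**Figure D1:**
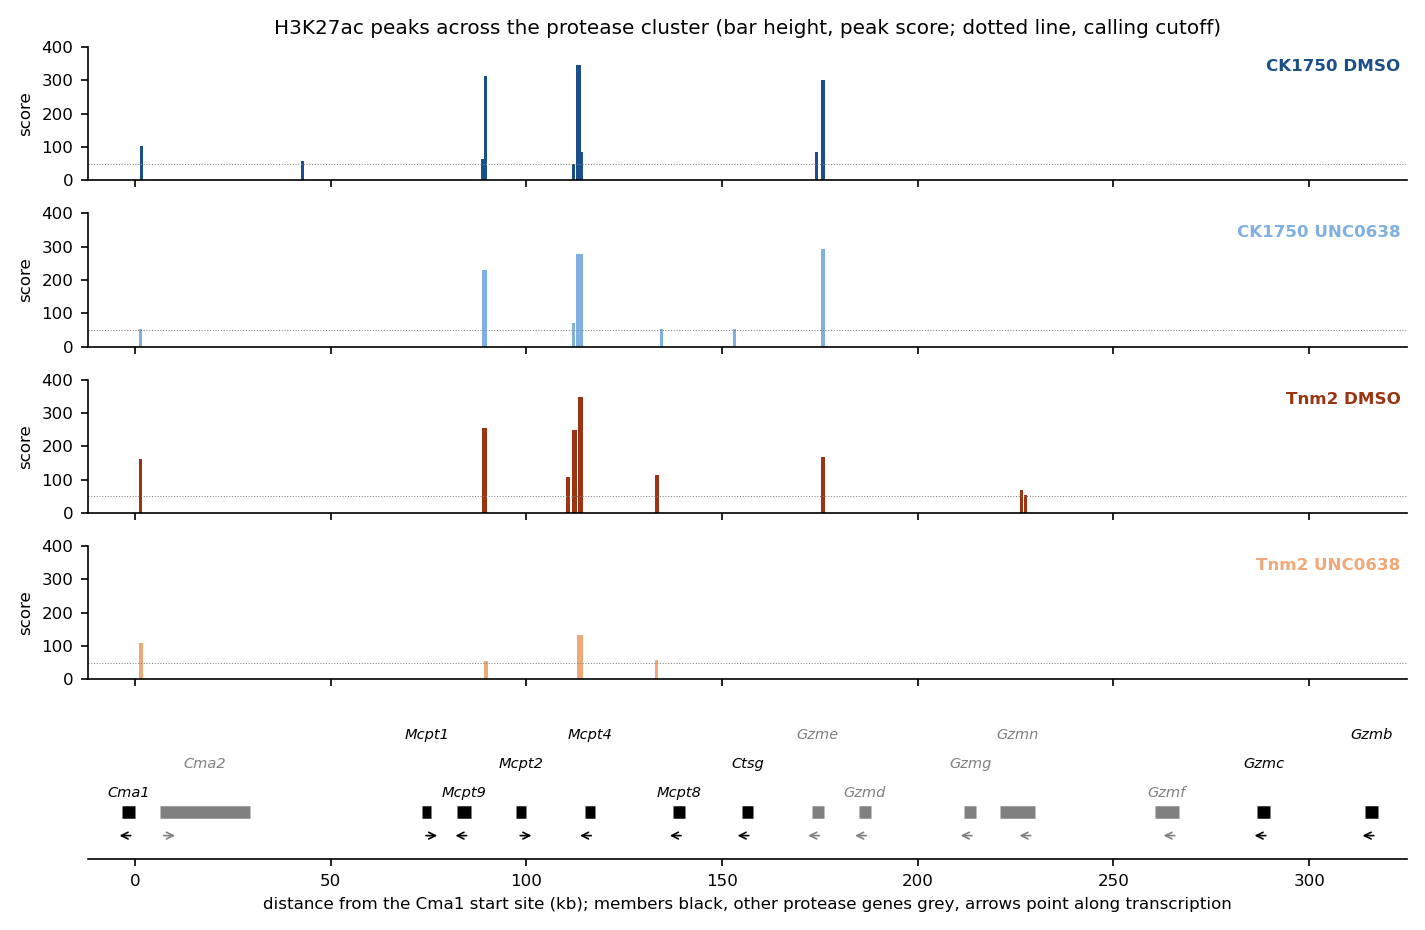
H3K27ac peaks across the cluster in each of the 4 lists, as bars of peak width and of height equal to the peak score, against distance from the Cma1 TSS in kb. Gene bodies are drawn below, with members in black and other protease genes in grey. In both CK1750 panels and in DMSO-treated Tnm2 the tallest bars stand between Mcpt9 and Mcpt4 and at Gzme. UNC0638-treated Tnm2 has its tallest bar between Mcpt2 and Mcpt4 and none at Gzme. No list has a bar near Gzmc or Gzmb.

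Cma1 (chr14:55941451-55944675, minus strand) encodes a mast cell chymase and opens the cluster. Its peak lay upstream of the gene, with a near edge 1.21 kb from the TSS in DMSO-treated CK1750, 1.11 kb in UNC0638-treated CK1750, 1.14 kb in DMSO-treated Tnm2 and 0.977 kb in UNC0638-treated Tnm2. The peak scored 102.55, 53.1, 160.98 and 107.83 in the same order. Read within each list, these scores stood at or above 37.9%, 3.28%, 54.5% and 45.5% of all peaks, so that the peak was close to the calling cutoff of 50 in UNC0638-treated CK1750 and mid-ranked in both Tnm2 lists. Widths ran from 556 bp in UNC0638-treated CK1750 to 1047 bp in UNC0638-treated Tnm2, and the peaks of the 4 lists overlapped one another.

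The 300 bases at the centre of the stretch shared by the 4 Cma1 peaks, chr14:55945960-55946259 (plus strand, mm10), are shown because no other site of the cluster lay within 2.5 kb of a member's TSS. A nearly identical stretch lies between Mcpt2 and Mcpt4, at chr14:56055020-56055319 (plus strand). In the Cma1 sequence capitals mark the letters AGATAA, the core bound by GATA factors, and in the copy capitals mark each base that differs from the Cma1 sequence.
Cma1 site: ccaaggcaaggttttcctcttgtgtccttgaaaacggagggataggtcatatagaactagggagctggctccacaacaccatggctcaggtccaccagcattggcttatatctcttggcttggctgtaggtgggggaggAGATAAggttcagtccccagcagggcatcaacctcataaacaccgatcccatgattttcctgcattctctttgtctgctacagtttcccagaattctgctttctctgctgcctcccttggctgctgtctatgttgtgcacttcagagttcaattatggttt
Copy near Mcpt4: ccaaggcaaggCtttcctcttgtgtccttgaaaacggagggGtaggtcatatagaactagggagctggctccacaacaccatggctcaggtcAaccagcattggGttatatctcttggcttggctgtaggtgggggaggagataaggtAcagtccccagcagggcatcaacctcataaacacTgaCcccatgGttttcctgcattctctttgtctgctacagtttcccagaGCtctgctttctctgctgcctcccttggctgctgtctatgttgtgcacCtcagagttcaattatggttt
The copy differed at 11 of 300 bases (96.3% identity over this stretch) and kept the AGATAA letters. Over 97% of its length the Cma1 site matched its copy at 91.8%. The copy carried a peak in 1 list, DMSO-treated Tnm2, with a score of 107.09, while the Cma1 site carried one in all 4. Of the 38-base words that start in the Cma1 site 72.2% occurred at 1 place only in the genome, and of 75-base words 85.3%, beside 83.1% and 89.1% of words sampled over the genome, so that part of the reads from either place could also fit the other. How this sharing of sequence affected the 2 peaks was not tested.

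Mcpt9 and Mcpt4 lay just outside the 2.5 kb window. Mcpt9 (chr14:56026864-56030495, minus strand), a mast cell protease gene known from the uterus, had its nearest peak upstream at 2.88 kb in DMSO-treated CK1750, 2.77 kb in UNC0638-treated CK1750, 2.9 kb in DMSO-treated Tnm2 and 3.6 kb in UNC0638-treated Tnm2. Mcpt4 (chr14:56059629-56062313, minus strand), the chymase of connective tissue mast cells, had its nearest peak beyond the end of the gene, 3.24, 3.19, 3.25 and 3.12 kb from its TSS in the same order. These distances changed little among the 4 lists, and a window of 5 kb would have counted both genes in each.

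Mcpt2 (chr14:56042041-56044642, plus strand), a protease of mucosal mast cells, stood 7.31, 7.33, 7.32 and 7.4 kb downstream of its nearest peak in the 4 lists. Mcpt1 (chr14:56017971-56020384, plus strand), the other mucosal mast cell protease, had its nearest peak 15.4, 15.3, 15.4 and 16.1 kb past its TSS. Mcpt1, Mcpt9 and Mcpt2 shared that nearest site, the site between Mcpt9 and Mcpt2, so that their distances were not independent of one another.

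Mcpt8 and Ctsg were the members whose distance differed most between the lists of CK1750. Mcpt8 (chr14:56082166-56085273, minus strand), a protease of basophils, lay 26.1 kb from a peak in DMSO-treated CK1750, 5.64 kb in UNC0638-treated CK1750, 6.68 kb in DMSO-treated Tnm2 and 6.87 kb in UNC0638-treated Tnm2. Ctsg (chr14:56099881-56102574, minus strand), which encodes cathepsin G, lay 15.9, 3.68, 17.5 and 23.4 kb from a peak in the same order. The shorter distances in UNC0638-treated CK1750 each rested on 1 peak found in that list alone, with scores of 52.09 beside Mcpt8 and 53.07 beside Ctsg. Both were just above the calling cutoff and stood at or above 2.11% and 3.16% of that list's peaks.

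Gzmc (chr14:56231441-56234656, minus strand) and Gzmb (chr14:56258838-56262260, minus strand), granzymes of cytotoxic lymphocytes, were the members farthest from any peak. Gzmc lay 114 kb away in both CK1750 lists, 62.1 kb in DMSO-treated Tnm2 and 156 kb in UNC0638-treated Tnm2. For Gzmb, which encodes the granzyme that cleaves caspases in target cells, the distances were 141, 141, 89.7 and 184 kb. Between 79.1% and 83.6% of coding genes lay as near to a peak as Gzmb or nearer, depending on the list. Past the last peak of the cluster no peak was found for 455, 454, 403 and 497 kb, up to a peak near Cenpj, and this interval held every TSS of 9, 8, 7 and 11 coding genes.

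Over all 9 members the median distance to a peak was 15.4 kb in DMSO-treated CK1750, 5.64 kb in UNC0638-treated CK1750, 7.32 kb in DMSO-treated Tnm2 and 7.4 kb in UNC0638-treated Tnm2. The medians over all coding genes were 2.46, 3.46, 3.08 and 13.3 kb. The members were thus farther from a peak than the median coding gene in 3 lists and nearer in UNC0638-treated Tnm2, the list with the fewest peaks. The shorter median in UNC0638-treated CK1750 than in DMSO-treated CK1750 turned into a longer one among peaks scoring at least 100 (17.5 beside 16 kb) and with equal list sizes (17.5 beside 15.9 kb).

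**Figure D2:**
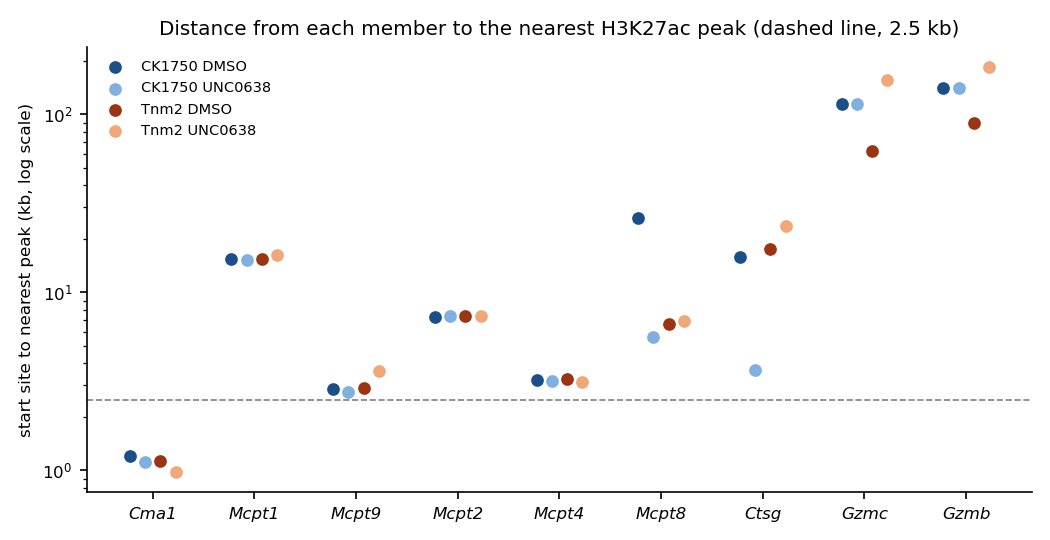
Distance in kb (log scale) from each member's TSS to the nearest H3K27ac peak, 1 point for each of the 4 lists, with a dashed line at 2.5 kb. Cma1 alone lies under the line in all 4 lists, Mcpt9 and Mcpt4 lie just above it, and Gzmc and Gzmb lie at 62.1 to 184 kb.

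Peaks of the 4 lists that overlapped were joined into sites. There were 14 sites in the cluster and its flanks and 12 inside the cluster. Peaks inside the cluster numbered 9, 7, 9 and 4 in the 4 lists, which is 28.1, 21.8, 28.1 and 12.5 per Mb beside 10, 9.02, 11.2 and 6.89 per Mb over the genome. Among 5223 adjoining windows as long as the cluster with its flanks, 20.4%, 23.3%, 20.6% and 28.5% held at least as many peaks as this one, which had 10, 8, 11 and 5. The cluster was therefore not empty of acetylation, although most of it was away from the members' TSSs. Median scores of its peaks were 86.1, 70.5, 161 and 82.5, under the list's own median in all but DMSO-treated Tnm2.

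In the mast cell protease part of the cluster, the sites that scored highest in CK1750 and in DMSO-treated Tnm2 lay between genes. The site between Mcpt9 and Mcpt2 (chr14:56033262-56034729) scored 313.46 in DMSO-treated CK1750, 230.68 in UNC0638-treated CK1750, 253.77 in DMSO-treated Tnm2 and 55.7 in UNC0638-treated Tnm2. The site between Mcpt2 and Mcpt4 (chr14:56056304-56059194) scored 345.96, 277.08, 347.8 and 134.21. It lies just beyond the end of Mcpt4, a minus-strand gene, and does not overlap that gene. Both sites carried a peak in all 4 lists, and their scores stood at or above 55.3% to 74.8% of the list's peaks except for the first site in UNC0638-treated Tnm2, at 7.67%.

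The sites differed in how they were divided into peaks. Between Mcpt9 and Mcpt2, DMSO-treated CK1750 had 2 peaks, of 463 bp (score 64.86) and 806 bp (313.46), where UNC0638-treated CK1750 had 1 of 1448 bp and DMSO-treated Tnm2 1 of 1323 bp. UNC0638-treated Tnm2 had 1 peak there of 545 bp. Between Mcpt2 and Mcpt4 the 4 lists had 3, 2, 2 and 1 peaks, and the widest was that of UNC0638-treated CK1750, at 1796 bp. Part of the difference in peak counts between lists was therefore in the division of the same stretch.

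The centres of these 2 sites are shown with the closest copy of the first, since the copy carried no peak in any list. The first centre is chr14:56034220-56034519 (plus strand), with the AGATAA letters in capitals as they read on the other strand. It also holds a match to TTGCNNAA, the letters bound by C/EBP factors, which is not marked. The copy lies within Cma2, another chymase gene of the cluster, at chr14:55966199-55966492 (minus strand), with capitals at the bases that differ. The second centre is chr14:56058022-56058321 (plus strand), with capitals at CATGTG, an E-box of the kind bound by Mitf, a transcription factor of mast cells.
Mcpt9 to Mcpt2 site: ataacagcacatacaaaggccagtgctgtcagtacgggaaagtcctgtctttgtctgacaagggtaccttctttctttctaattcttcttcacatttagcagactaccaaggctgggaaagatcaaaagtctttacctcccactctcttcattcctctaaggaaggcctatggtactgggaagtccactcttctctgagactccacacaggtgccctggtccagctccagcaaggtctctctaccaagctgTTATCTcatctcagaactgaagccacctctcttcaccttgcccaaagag
Copy in Cma2: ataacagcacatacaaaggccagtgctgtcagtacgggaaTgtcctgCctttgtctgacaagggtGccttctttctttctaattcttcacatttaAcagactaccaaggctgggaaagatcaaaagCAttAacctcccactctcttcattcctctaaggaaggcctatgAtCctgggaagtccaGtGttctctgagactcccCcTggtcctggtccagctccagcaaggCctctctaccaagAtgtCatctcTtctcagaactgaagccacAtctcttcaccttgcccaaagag
Mcpt2 to Mcpt4 site: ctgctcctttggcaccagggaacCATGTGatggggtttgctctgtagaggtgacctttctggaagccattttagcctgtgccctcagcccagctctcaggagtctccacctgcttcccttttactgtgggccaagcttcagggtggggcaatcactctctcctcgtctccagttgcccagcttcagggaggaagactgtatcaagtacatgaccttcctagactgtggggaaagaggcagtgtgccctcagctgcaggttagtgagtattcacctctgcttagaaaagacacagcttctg
Over this stretch the Cma2 copy had 18 substitutions and lacked 6 bases (93.9% identity among aligned bases), and the AGATAA letters were not kept. Over 99.7% of the length of the Mcpt9 to Mcpt2 site the Cma2 copy matched at 90.9%, a copy near Gm5801 matched at 85.7% over 99.1% of it, and a copy at Mcpt8 at 82.7% over 64.8% of it, all 3 without a peak. The Mcpt2 to Mcpt4 site had no copy of at least 80% identity over 50% of its length, and 97.7% of its 38-base words occurred at 1 place only.

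The other high-scoring site covered the TSS of Gzme, a granzyme gene of the cluster that is not a member. It scored 302.37 in DMSO-treated CK1750, 293.06 in UNC0638-treated CK1750 and 167.17 in DMSO-treated Tnm2, and had no peak in UNC0638-treated Tnm2. Copies of the site lay at the TSSs of Gzmd (93.9% identity), Gzmf (86.2%), Gzmc (84.1% over 69.8% of the site) and Gzmg (82.3%), and at Gm8961 (80.9%). None of these 5 copies had a peak overlapping it in any list. Gzmc, the member among them, thus had no peak where a close relative of its TSS had one in 3 lists.

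The 250 bases before the TSSs of Gzme, Gzmd and Gzmc (RefSeq, GRCm38.p6) are set side by side because the first lay under a peak in 3 lists and the others in none. They are chr14:56120626-56120875, chr14:56132594-56132843 and chr14:56234658-56234907, all on the minus strand. In Gzme capitals mark TGTGGT, the core bound by Runx factors, on either strand, and in the others each base that differs from Gzme.
Gzme: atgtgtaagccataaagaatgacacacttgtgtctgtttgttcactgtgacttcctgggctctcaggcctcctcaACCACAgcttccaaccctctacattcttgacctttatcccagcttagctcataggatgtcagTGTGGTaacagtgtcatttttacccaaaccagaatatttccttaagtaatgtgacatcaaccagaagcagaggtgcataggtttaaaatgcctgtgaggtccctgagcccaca
Gzmd: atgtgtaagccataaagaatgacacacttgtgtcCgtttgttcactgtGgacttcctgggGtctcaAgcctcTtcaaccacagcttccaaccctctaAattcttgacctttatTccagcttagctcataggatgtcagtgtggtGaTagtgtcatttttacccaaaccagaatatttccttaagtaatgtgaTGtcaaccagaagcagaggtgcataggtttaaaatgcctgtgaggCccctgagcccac
Gzmc: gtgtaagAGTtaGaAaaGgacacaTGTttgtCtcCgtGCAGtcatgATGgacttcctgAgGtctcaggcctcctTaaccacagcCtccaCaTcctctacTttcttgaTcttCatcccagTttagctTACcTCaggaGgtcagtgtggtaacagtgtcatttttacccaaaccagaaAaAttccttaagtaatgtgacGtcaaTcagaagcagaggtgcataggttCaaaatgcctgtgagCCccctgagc
Gzmd had 11 substitutions, 1 extra base and 1 missing base (95.6% identity among aligned bases), and Gzmc had 33 substitutions, 8 extra bases and 8 missing ones (86.4%). Each of the 3 held 2 matches to TGTGGT. Of the 38-base words that start in the Gzme site 74.1% occurred at 1 place only, and of those within 2.5 kb of the Gzmc TSS 87.6%. The second share is for the whole window, and the copies at Gzmc and Gzmd were not counted on their own. The 2 shares therefore do not compare the Gzme site with its copies.

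**Figure D3:**
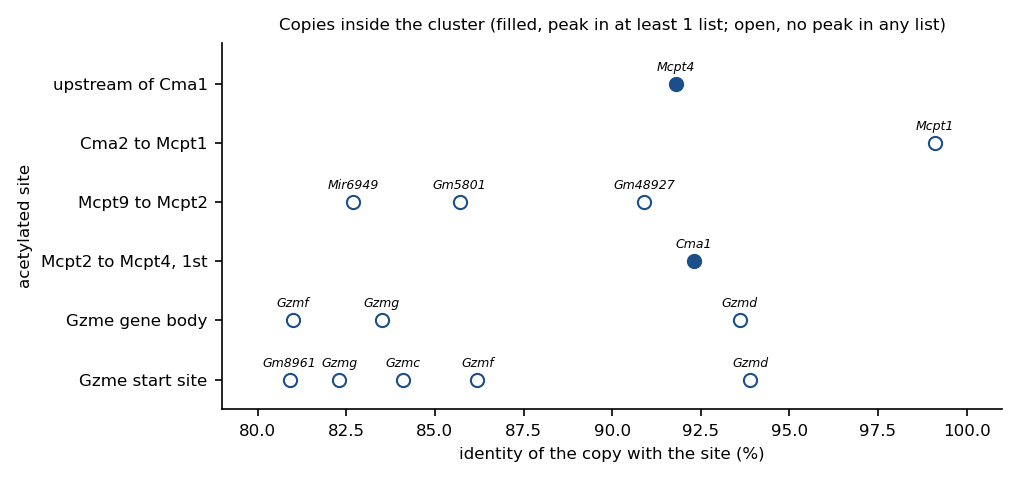
Identity in percent of each copy inside the cluster with the acetylated site it resembles, 1 row for each site that has copies, labelled with the nearest gene. Filled circles mark the 2 copies that carried a peak in at least 1 list, which are the Cma1 site and its counterpart near Mcpt4, and open circles the 12 that carried none.

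The remaining sites were weaker and mostly in 1 list. Of all 14 sites, 4 had a peak in all 4 lists, beside 34.2% of regions genome-wide, and 3 of these 4 were inside the cluster (the sites upstream of Cma1, between Mcpt9 and Mcpt2, and between Mcpt2 and Mcpt4). The fourth covered the TSS of Khnyn in the left flank, with scores of 762.42, 514.26, 286.88 and 126.41. A peak in 1 list only was found at 8 sites, with scores of 52.09 to 107.09, and 1 of these reached 100. The share of such regions over the genome was not counted. Whether this number is unusual for these lists is therefore not known. The site beside Mcpt8 that is nearest to Mcpt4 was found in Tnm2 only, with scores of 114.41 with DMSO and 57.12 with UNC0638. The 2 sites in the body of Gzmn, with scores of 68.89 and 53.53, were found in DMSO-treated Tnm2 alone, and the second lay within 2.5 kb of the Gzmn TSS. The site between Cma2 and Mcpt1 (58.5, DMSO-treated CK1750 alone) had a copy 99.1% identical near Mcpt1, and 35.4% of its 38-base words occurred at 1 place only.

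With UNC0638, CK1750 lacked a peak at 2 of the 7 sites that had one with DMSO, beside 23.3% of regions genome-wide. These were the site between Cma2 and Mcpt1 and the site in the body of Gzme. It had a peak at 2 sites without one in DMSO (the sites beside Mcpt8 and Ctsg), of 7 with UNC0638, beside 19.2% genome-wide. Tnm2 lacked a peak at 5 of 10 sites with UNC0638, beside 43.4% genome-wide, and gained none of 5, beside 9.03%. With counts this small, the shares in either line were near those of the genome, and no member gained or lost a peak within 2.5 kb of its TSS in either line.

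**Figure D4:**
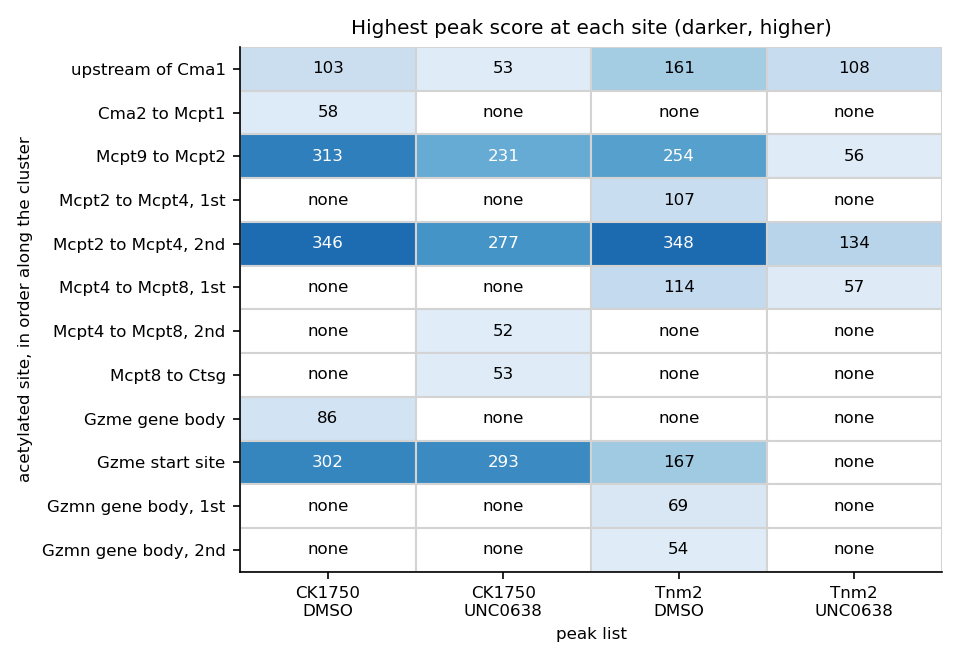
Highest H3K27ac peak score at each of the 12 sites of the cluster (rows, in order along the chromosome) in each of the 4 lists (columns), with darker cells for higher scores and none where the list had no peak. The rows upstream of Cma1, between Mcpt9 and Mcpt2, and the second row between Mcpt2 and Mcpt4 are filled in all 4 lists.

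Sequence around the TSSs of most members was no more repeated than the genome's own. Words of 38 bases that occurred at 1 place only made up 76.2% to 99.2% of the 2.5 kb windows of 8 members and 45.8% of that of Mcpt9. Beside the genome's own share of 83.1%, Mcpt4, at 76.2%, was lower too. For words of 75 bases the shares were 93.8% to 100% and 71.6%, beside 89.1% over the genome. Mcpt4, at 93.8%, was above the genome's share at this length, and Mcpt9 was under it at both. Over the whole cluster the shares were 70% and 84%, lower than in the left flank (94.6% and 98.6%) and the right flank (87.8% and 94.5%). The depth of reads at these places is not known. Whether reads that could not be placed bear on the missing peak at Mcpt9 or Mcpt4 was not tested.

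RefSeq promoters, the 250 bases before and 50 after a TSS, were matched for 8 of the 9 members. They held 0 to 8 CpG dinucleotides each, with a median of 2.5, beside a median of 7 over 32851 mouse promoters. Ctsg had 8, Cma1, Mcpt9 and Mcpt4 had 3, Mcpt1, Gzmc and Gzmb had 2, and Mcpt8 had 0. Among promoters with at most 8 CpG, 6.64%, 6.87%, 7.57% and 5.41% lay under a peak in the 4 lists, and among those with more 63.7%, 63.8%, 60.7% and 51.3%. The limit of 8 was the members' own highest value, that of Ctsg, and 54.2% of all promoters lay at or under it. The 8 matched members thus fell in this larger part of promoters, which seldom lay under a peak in these cells. These shares count peaks over the promoter itself and not within 2.5 kb of a TSS. Whether CpG content bears on the members' lack of peaks was not tested.

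TGTGGT was found in 7 of the 8 promoters, all but that of Mcpt9, beside 16.8% of all promoters. Among genes of the cluster that are not members, the promoters of Gzme, Gzmd, Gzmg and Gzmf held it too, and that of Gzmn did not. Promoters of the cluster can share sequence, as those of Gzme and Gzmc do, so they are not independent of one another. Of the 14 site centres 1 held TGTGGT, that in the body of Gzme (19.3% of regions). AGATAA was found in none of the 8 (11.2% of all promoters), but in the centres of 3 of the 14 sites, namely the Cma1 site, its copy near Mcpt4, and the Mcpt9 to Mcpt2 site (10.6% of 37696 regions). CATGTG was present in the promoters of Ctsg and Gzmc (14.2% of promoters) and in 2 site centres (15.1% of regions). The palindromic E-box CACGTG was found in no member promoter and no site centre. TGANTCA, bound by AP-1, was found in the promoter of Gzmb (7.81% of promoters) and in 1 site centre (11.8% of regions), and TTCNNNGAA, bound by STAT factors, in the promoters of Ctsg and Gzmb (8.3%) and in the Cma1 site (8.2%). TTGCNNAA, bound by C/EBP factors, was found in no member promoter (10.8% of promoters) and in the centre of the Mcpt9 to Mcpt2 site (9.46% of regions). TGTTTAC and CACTTGA, searched for FOX and NKX2 factors, were in no member promoter (3.65% and 3.06% of promoters). They were in no site centre either (4.16% and 3.33% of regions). All motifs were searched on both strands, and a match is a description of the letters only.

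Other genes of granule proteases, and markers of cell types, were counted in the same way. The shares of all coding genes, 50.04%, 49.1%, 49.4% and 41.3% in the 4 lists, stand beside these counts. No difference from them was tested. None of 6 genes of the tryptase locus on chromosome 17 and none of the granzyme genes elsewhere (Gzma, Gzmk and Gzmm) had a peak within 2.5 kb of a TSS in any list, and no peak lay anywhere within the tryptase locus or between Gzma and Gzmk. Of 10 mast cell markers, among them Kit, the receptor for stem cell factor, Fcer1a and Ms4a2, subunits of the IgE receptor, Cpa3, a carboxypeptidase, and Hdc, which makes histamine, none had a peak in any list. Of 8 markers of cytotoxic lymphocytes, Eomes had a peak in both CK1750 lists (75.44 and 66.48) and the other 7 had none. Of 6 markers of leukocytes, Cd53 had a peak in all 4 lists (438.01, 695.98, 860.99 and 397.01) and Laptm5 in DMSO-treated Tnm2 (66.28), while Ptprc, which encodes CD45, had none. Of 8 epithelial markers 6, 6, 6 and 5 had a peak, while Epcam and Cldn4 had none. Among those with a peak were Krt8 (3100, 3100, 2106.13 and 756.98) and the lung lineage factor Nkx2-1 (1267.68, 1037.16, 1516.92 and 972.47).

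Genes that act with these proteases were counted beside the shares of all coding genes in the 4 lists, 50.04%, 49.1%, 49.4% and 41.3%, and no difference from them was tested. Of 13 partners in granule storage, activation and inhibition, 8, 8, 7 and 7 had a peak. Ctsc, the peptidase that activates the proteases, scored 423.83, 316.52, 591.56 and 117.68, and the granzyme B inhibitor gene Serpinb9 scored 435.03, 545.91, 651.63 and 145.07. The proteoglycan gene Srgn and the perforin gene Prf1 had none. Among 10 regulators of these genes 7, 6, 4 and 4 had a peak. Cebpb, Cebpa, Stat5a and Stat5b had one in all 4 lists. Mitf (63.36 and 59.62) and Eomes (75.44 and 66.48) had one in both CK1750 lists. Runx3 had one in DMSO-treated CK1750 alone (166.86), and Gata1, Gata2 and Tbx21 in none. These gene lists overlap with the cell type markers. Eomes, Tbx21 and Gata2 among the regulators, and Cpa3, Hdc and Prf1 among the partners, are also counted there.

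Receptors and substrates of granule proteases had a peak at 4, 4, 3 and 4 of 8 genes. F2rl1 encodes a protease-activated receptor cleaved by tryptase, a product of the chromosome 17 locus and not of this cluster. F2rl1 scored 1538.03, 1614.77, 1072.57 and 456.63. Fn1, which encodes the matrix protein fibronectin, scored 1844.35, 1151.51, 604.67 and 122.32. The angiotensinogen gene Agt and the endothelin gene Edn1, whose products chymases cleave, had none. All 4 reference genes had a peak in every list.

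**Figure D5:**
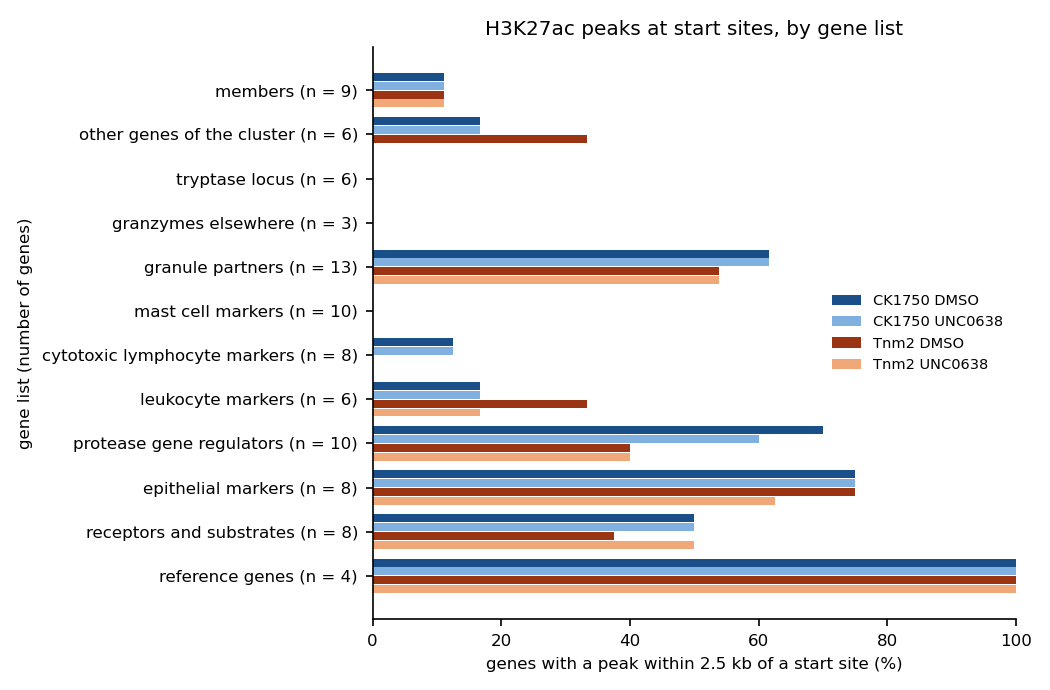
Share in percent of the genes of each list that had a peak within 2.5 kb of a TSS, with 1 bar for each of the 4 peak lists and the number of genes in brackets. Mast cell markers, the tryptase locus and granzymes elsewhere have no bar, the members have 1 of 9 in each list, and the reference genes stand at 100%.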

How the data were processed

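H3K27ac ChIP-seq libraries of CK1750 and Tnm2 cells were grouped by line and treatment from the labels. According to the study's methods and labels, the authors mapped reads to mm10 with Bowtie2 and called peaks with MACS 1.4.2, keeping those with P up to 1e-05. The deposited lists give chromosome, start, end and a score, taken as -10 log10(P), the form this MACS version writes, so that a peak just called scores 50. The labels assign a group's samples to 1 list. Whether an input control was used, which samples entered a list and the read totals are not given in the sources used here. Depth was therefore unknown. The 21 H3K9me2 and input samples were not analysed here. No peak ended beyond a chromosome of the GRCm38 reference.

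TSSs came from GENCODE M21, and a gene was counted when a peak overlapped a window of 2.5 kb to either side of any TSS. Overlap was at least 1 bp. Distances ran from the TSS to the nearest peak edge. Lists were joined where peaks overlapped, and each joined region was counted as a site. Copies of sites were sought with blastn 2.17.0 (at least 80% identity over at least 50% of the site), words of 38 and 75 bases were counted on both strands of the 21 main chromosomes, and sequences and promoters were read from RefSeq GRCm38.p6. Python 3.11.15, numpy 2.4.6, Biopython 1.88 and matplotlib 3.10.9 were used. The counting was tested on simulated peaks, where 200 of 200 planted genes were recovered and 0 others were called.

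The members, the gene lists and the windows were chosen with earlier results of these data known. Genes named in the text are the members, the other genes of those lists, and genes at a described site. Other windows, flanks, score limits and equal list sizes were tried. No p-value was computed, since each group has 1 list.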

Additional observations from a re-analysis of the deposited data

Results flagged for a closer look

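The change in the median distance from a member's TSS to the nearest peak, UNC0638 minus DMSO, was -9.76 kb in CK1750 and 0.079 kb in Tnm2, so that the signs differed between the lines (medians of 15.4 and 5.64 kb in CK1750, and of 7.32 and 7.4 kb in Tnm2). This difference was not tested, since each group has 1 list. In CK1750 the change came from Mcpt8 and Ctsg, whose nearest peaks with UNC0638 scored 52.09 and 53.07, just above the cutoff of 50. The sign in CK1750 turned with equal list sizes (1.61 kb) and among peaks scoring at least 100 (1.53 kb), where it was positive as in Tnm2 (0.079 and 19.8 kb). The value of 0.079 kb in Tnm2 is a shift in the near edge of the peak next to Mcpt2.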

How the results depend on the processing

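No paired analysis was possible because each group has 1 list without values for single samples, and for the same reason no sample could be left out. Of 88 alternative values for 22 results, 42 moved little, 42 moved and 4 changed direction. Values are given for DMSO-treated CK1750, UNC0638-treated CK1750, DMSO-treated Tnm2 and UNC0638-treated Tnm2. The number of members with a peak was 0, 0, 0 and 1 within 1 kb of a TSS, 3, 4, 3 and 3 within 5 kb, 4, 6, 5 and 5 within 10 kb, and 1, 0, 1 and 1 for peaks with a score of at least 100. The share of coding genes was 48.6%, 47.8%, 47.8% and 39.8% within 1 kb, 52.3%, 51.3%, 51.8% and 43.5% within 5 kb, 56.3%, 55%, 56% and 47.7% within 10 kb, and 45.1%, 44.5%, 43.9% and 32% with a score of at least 100. In the cluster with its flanks, 5, 4, 8 and 3 peaks scored at least 100, and 6, 4, 8 and 5 remained with equal list sizes. Flanks of 250 kb raised the count in every list, to 15, 12, 14 and 8 from 10, 8, 11 and 5 with 100 kb. The median distance of the members was 16, 17.5, 7.32 and 27.1 kb to a peak scoring at least 100, and 15.9, 17.5, 7.32 and 7.4 kb with equal list sizes. The shorter median in UNC0638-treated CK1750 thus rested on peaks near the cutoff. The differences that follow were added after seeing the data. The members' share minus that of coding genes, -38.9, -38, -38.3 and -30.2 percentage points at 2.5 kb, turned at 10 kb in both UNC0638 lists (11.7 in CK1750 and 7.88 in Tnm2). It was -0.452 at 10 kb in DMSO-treated Tnm2, and at 1 kb -48.6, -47.8 and -47.8 in the first 3 lists. The change of the members' median distance with UNC0638 in CK1750, -9.76 kb, turned to 1.53 kb among peaks scoring at least 100 and to 1.61 kb with equal list sizes, and in Tnm2 it was 19.8 kb among peaks scoring at least 100. Depth is unknown, so that a missing peak near the cutoff may be a small difference in reads.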
